A study of Tupaia belangeri with 6 samples.

Results

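Astrocytes of the adult tree shrew prefrontal cortex (PFC) were followed through 10 genes that commonly mark this cell type: GFAP, AQP4, SLC1A2, SLC1A3, GJA1, GJB6, ALDH1L1, S100B, GLUL and ALDOC. The genes were taken by symbol as common markers of the cell type, with earlier results of these data known. A gene was measured where a row of the abundance tables carried exactly its symbol, and where 1 gene ID had several rows on a chromosome they were added together. Rows were found for 5 of the 10 genes, out of 95863 loci in all: GFAP, AQP4, SLC1A2, SLC1A3 and ALDH1L1. No row with the symbol GJA1, GJB6, S100B, GLUL or ALDOC was found, and these 5 genes were not analysed here. For GLUL, 2 numbered copies of the symbol were listed at 0 in every library and were not counted as the gene.

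Astrocytes are the glial cells that surround synapses and blood vessels. They clear glutamate from the extracellular space with the transporters SLC1A2 (GLT-1) and SLC1A3 (GLAST). The intermediate filament protein GFAP forms part of their cytoskeleton, the water channel AQP4 is concentrated in the endfeet that wrap vessels, and ALDH1L1, a cytosolic folate enzyme, is a common marker of astrocytes throughout the brain.

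RNA was sequenced from the PFC of 3 adult females (numbered 1, 3 and 4) and 3 adult males (numbered 1, 4 and 5) of the tree shrew Tupaia belangeri. The animals received no treatment named in the labels, and each library is 1 animal. The study lists every male at a greater age than every female, so sex and age cannot be told apart here. Polyadenylated RNA was enriched from total RNA, and no strand-specific protocol is named, so reads of genes that overlap on opposite strands, or of near-identical copies, may have been shared. In bulk tissue, fewer astrocytes and less RNA of a gene per astrocyte cannot be told apart.

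Levels are in TPM, a transcript abundance scaled to gene length and to the library. The tables also give the mean coverage of each locus, the average number of reads over a base, which is not adjusted for library size. They list no counts of reads, so no counting interval was computed. Over the 6 libraries the coverage was 444 to 745 for SLC1A2, 605 to 851 for SLC1A3, 205 to 333 for GFAP, 99.7 to 212 for AQP4 and 8.76 to 51.2 for ALDH1L1, so ALDH1L1 rested on the fewest reads per base. Between 30342 and 33114 loci were above 0 TPM in each library. Some genes that every cell uses (GAPDH, EEF1A1, PPIA, RPLP0 and TUBA1A) were listed at 0 in every library, so neither a 0 nor a missing symbol measures absence of a transcript. Males 1 and 5 stood apart from the other 4 libraries in the share of TPM on loci without an assigned strand, at 5.16% and 7.88% against 2.30% to 3.33%. Across 23445 genes, male 5 also correlated least with the others, with Pearson's r on log2(TPM + 1) of 0.831 to 0.879, against 0.892 to 0.953 among the other 5 libraries. The sex differences were also computed without these 2 libraries. That leaves male 4 as the only male, so those values set the 3 females against 1 animal, with no spread among males.

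The glutamate transporters were the most abundant of the 5 measured genes. SLC1A2, at chr17:20589521-20678024 on the minus strand of the genome TS_3.0 (assembled locus MSTRG.21059), was at 951 TPM in female 1, 977 TPM in female 3, 725 TPM in female 4, 616 TPM in male 1, 1169.8 TPM in male 4 and 928 TPM in male 5. Male 4 was highest and male 1 lowest, so both extremes were males, and the females fell between them. The mean was 894 ± 197 TPM (SD, n = 6), which placed SLC1A2 between rank 79 and rank 188 of all loci in a library.

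SLC1A3, at chr10:28162741-28259546 on the minus strand (MSTRG.5061), was at 561, 662 and 394 TPM in females 1, 3 and 4, and at 508, 550.2 and 685 TPM in males 1, 4 and 5. Female 4 was lowest and male 5 highest, and the sexes overlapped. With a mean of 560.0 ± 106 TPM (SD, n = 6), it was the steadiest of the 5 genes, with a coefficient of variation of 19.0%. SLC1A2 and SLC1A3 together supplied 91.5% to 94.4% of the TPM of the 4 glutamate transporter genes of this family with a row (SLC1A1, SLC1A2, SLC1A3 and SLC1A6). Of the other 2, SLC1A1 is the transporter best known from neurons and SLC1A6 that of Purkinje cells, and they ranged from 35.5 to 63.96 TPM and from 46.5 to 62.9 TPM.

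GFAP, at chr15:62441910-62454970 on the plus strand (MSTRG.18014), was at 259, 245 and 169.9 TPM in females 1, 3 and 4, and at 190.5, 349 and 274 TPM in males 1, 4 and 5. Male 4 was highest and female 4 lowest, and male 1 lay among the females. The mean was 248 ± 63.95 TPM (SD, n = 6). AQP4, at chr12:49375443-49391275 on the plus strand (MSTRG.9758), was at 106, 167 and 64.9 TPM in females 1, 3 and 4, and at 98.9, 87.3 and 141 TPM in males 1, 4 and 5. Its highest and its lowest library were both female, so the 3 males lay inside the range of the females. The mean was 111 ± 37.2 TPM (SD, n = 6), and the highest library was 2.58-fold above the lowest, against 2.06-fold for GFAP.

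ALDH1L1, at chr23:20315517-20354393 on the minus strand (MSTRG.36244), was the least abundant of the 5 and the most variable. It was at 29.1, 27.3 and 50.8 TPM in females 1, 3 and 4, and at 18.9, 27.4 and 7.12 TPM in males 1, 4 and 5. Female 4 lay well above and male 5 well below the other 4 libraries, which fell between 18.9 and 29.1 TPM. The mean was 26.8 ± 14.3 TPM (SD, n = 6), the coefficient of variation was 53.6%, and the range spanned 7.13-fold. A single other locus overlapped ALDH1L1, on the other strand or with none assigned, and reached at most 5.84% of its TPM, while loci overlapping the other 4 genes reached at most 1.16% of theirs.

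The spread of these genes was set beside that of 9087 genes with a mean of at least 10 TPM. Over the 6 libraries, the SD of log2(TPM + 1) was 0.29 for SLC1A3, 0.33 for SLC1A2, 0.37 for GFAP, 0.48 for AQP4 and 0.89 for ALDH1L1, against a median of 0.31. ALDH1L1 varied more than 96.5% of those genes and AQP4 more than 82.5%. SLC1A3 varied more than 44.2%, SLC1A2 more than 56.5% and GFAP more than 65.9%, so these 3 were near the middle.

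**Figure D1:**
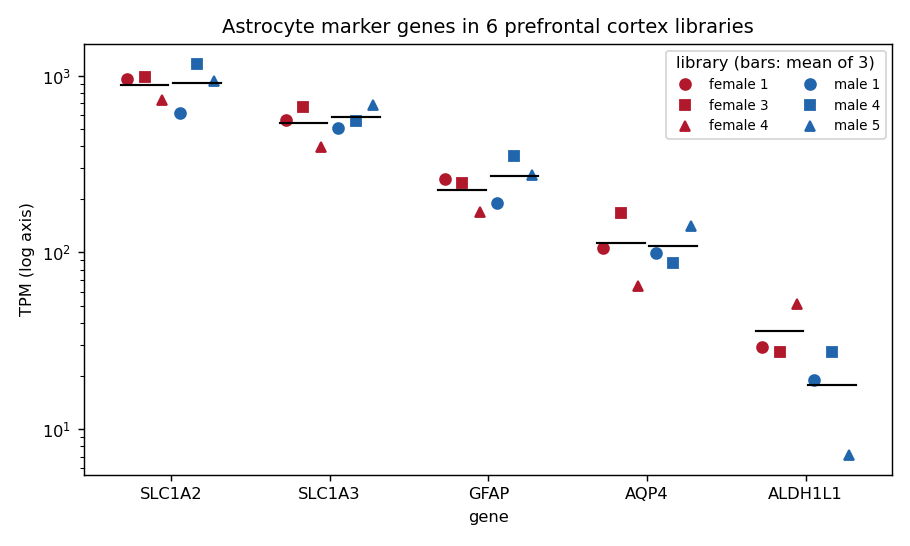
TPM (log axis) of the 5 astrocyte marker genes with a row, 1 point per library (red for females, blue for males), with black bars at the mean of each sex (n = 3). The genes keep the order SLC1A2, SLC1A3, GFAP, AQP4 and ALDH1L1 in every library, and ALDH1L1 spans 7.12 to 50.8 TPM.

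The order of the 5 levels in TPM was the same in all 6 libraries. SLC1A2 exceeded SLC1A3 by 1.21-fold to 2.13-fold, SLC1A3 exceeded GFAP by 1.58-fold to 2.70-fold, GFAP exceeded AQP4 by 1.47-fold to 4.0-fold, and AQP4 exceeded ALDH1L1 by 1.28-fold to 19.8-fold. The mean log2 ratios of these 4 neighbouring pairs were 0.67 ± 0.30, 1.19 ± 0.29, 1.19 ± 0.49 and 2.2 ± 1.30 (SD, n = 6). The pairs were picked from the observed order, so they are described and not tested.

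The top of this order depended on the unit. In each library, 44.4% to 58.0% of the loci with coverage above 1 shared a single ratio of TPM to coverage (within 0.2%), and no locus was below it. AQP4 and SLC1A3 stood at that ratio in all 6 libraries, GFAP at 1.26 to 1.28 times it, and SLC1A2 at 1.83 to 1.92 times it. By coverage, SLC1A2 was therefore above SLC1A3 in male 4 alone, at 1.13-fold, and at 0.642-fold to 0.964-fold in the other 5 libraries, with a mean log2 ratio of -0.25 ± 0.30 (SD, n = 6), within its spread. Every other pair of the 5 genes kept its order by coverage in every library. The cause of the difference between the units was not tested.

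ALDH1L1 stood at 1.01 times the shared ratio in 5 libraries but at 1.52 times it in female 4. Coverage scaled by the shared ratio of each library, in TPM equivalents, put ALDH1L1 at 28.8, 27.1 and 33.3 for females 1, 3 and 4, and at 18.7, 27.1 and 7.05 for males 1, 4 and 5. On this scale female 4 lay close to the other females, with a female mean of 29.7 ± 3.23 (SD, n = 3) in place of 35.7 ± 13.0 TPM, while male 5 remained the lowest library.

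**Figure D2:**
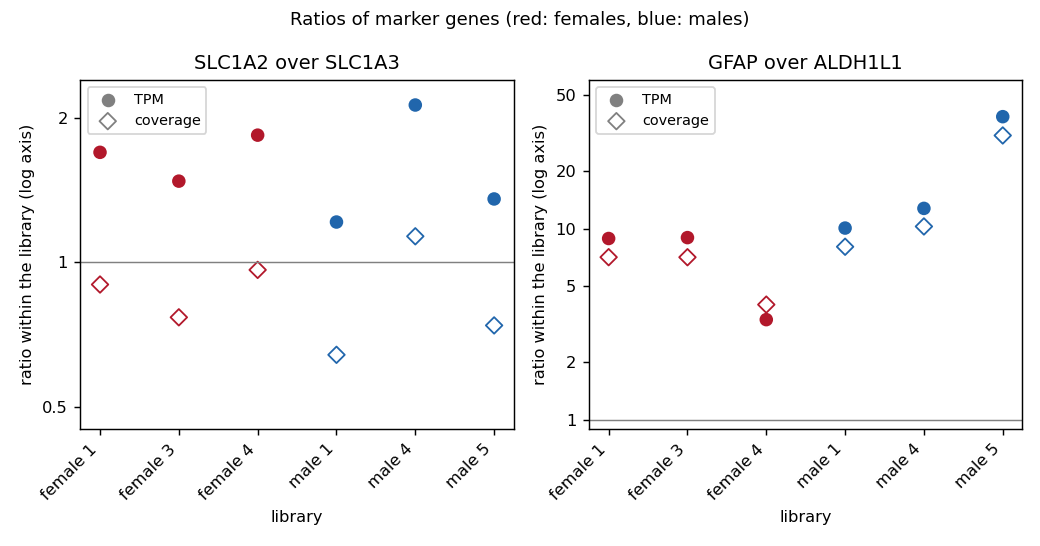
Ratio of SLC1A2 to SLC1A3 (left) and of GFAP to ALDH1L1 (right) within each library, on log axes, from TPM (filled circles) and from coverage (open diamonds), with red for females, blue for males and a grey line at a ratio of 1. SLC1A2 is above SLC1A3 in every library by TPM but in male 4 alone by coverage, and GFAP over ALDH1L1 runs from 3.35 in female 4 to 38.5 in male 5 by TPM.

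The 5 genes did not move as a single block over the libraries. In female 4, SLC1A2, SLC1A3, GFAP and AQP4 were all below their own means, by 0.27, 0.48, 0.50 and 0.70 on the log2(TPM + 1) scale, whereas ALDH1L1 was 1.09 above its mean. In male 5 the same 4 genes were above their means, by 0.08 to 0.41, and ALDH1L1 was at -1.58. All 5 genes were at or above their means in females 1 and 3, and all 5 were below them in male 1.

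**Figure D3:**
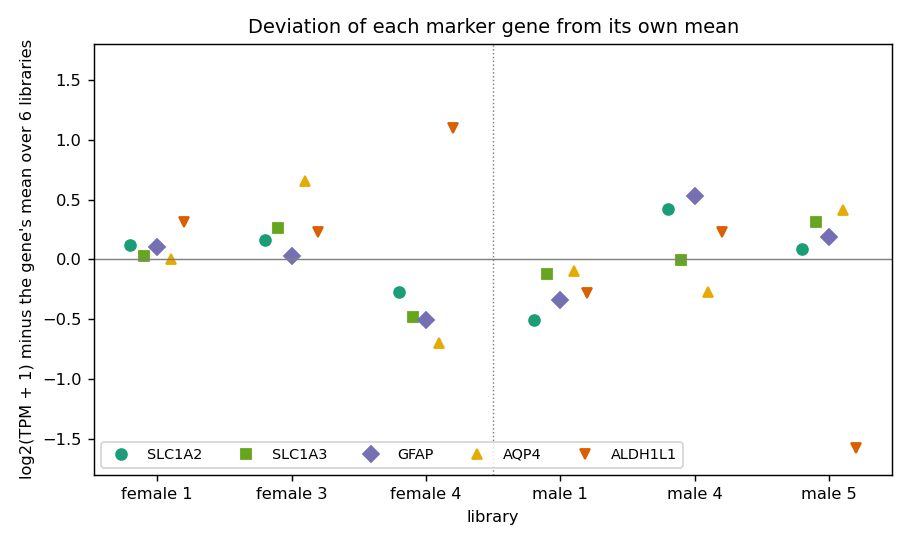
Deviation of log2(TPM + 1) of each gene from its mean over the 6 libraries, 1 symbol per gene, with a dotted line between females and males. ALDH1L1 is at 1.09 in female 4 and at -1.58 in male 5, where the other 4 genes lie on the opposite side of 0.

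Correlations were computed for all 10 pairs of the 5 genes on log2(TPM + 1) over the 6 animals, with exact two-sided permutation p-values. AQP4 and SLC1A3 had a Pearson's r of 0.933 (exact permutation p = 0.0125, adjusted p = 0.0972) and a Spearman's rho of 0.886 (exact permutation p = 0.0333, adjusted p = 0.333), and r was 0.867 without females 3 and 4, the 2 libraries farthest from the median of AQP4. GFAP and SLC1A2 had an r of 0.908 (exact permutation p = 0.0194, adjusted p = 0.0972) and a rho of 0.714 (exact permutation p = 0.136, adjusted p = 0.483), and r was 0.928 without female 4 and male 4. ALDH1L1 had a negative r with each of the other 4 genes, from -0.72 with SLC1A3 to -0.08 with SLC1A2, and its rho with SLC1A2 was 0.143. Adjusted p for these 4 pairs was at least 0.386 for r and 0.483 for rho. Each pair was also computed without the 2 libraries farthest from the median of the gene other than ALDH1L1, so different libraries were removed. Then r was 0.610 with SLC1A3 (without female 4 and male 5) and 0.463 with SLC1A2 (without female 4 and male 1). It was -0.88 with AQP4 (without females 3 and 4) and -0.28 with GFAP (without female 4 and male 4). Male 5, the lowest library of ALDH1L1, was removed for SLC1A3 alone, so these values cannot be compared between pairs. None of the 10 pairs had an adjusted p under 0.05. The labels name no batch to compare within.

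Females and males were compared because the study asked which genes differ between the sexes in this cortex. None of the 5 astrocyte genes passed the test of limma across all genes at a Benjamini-Hochberg adjusted p under 0.1, where 5 of 30238 genes did (0.0165%). With DESeq2 on read counts and the same threshold, the study called many more genes between the sexes. Few calls here therefore do not mean few differences. In the female minus male difference of log2(TPM + 1), a scale that understates changes of weakly expressed genes, 1 of the 5 genes (ALDH1L1) had an unadjusted p under 0.05 and was higher in females, as had 2.45% of all genes, and none was higher in males, where 2.58% of all genes were. All 5 genes overlapped between the sexes, against 9.86% of all genes that did not.

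The difference was 0.00 ± 0.30 (SE) for SLC1A2, from means of 884 ± 139 TPM in females and 905 ± 278 TPM in males (SD, n = 3 each), with an adjusted p of 0.9995 by limma. For SLC1A3 it was -0.13 ± 0.25 (539 ± 136 against 581 ± 92.5 TPM, limma adjusted p = 0.972). For GFAP it was -0.25 ± 0.27 (225 ± 47.8 against 271 ± 79.4 TPM, limma adjusted p = 0.941). For AQP4 it was -0.03 ± 0.34 (113 ± 51.5 against 109 ± 28.2 TPM, limma adjusted p = 0.997). The 95% intervals of the 4 differences ran from -0.67 to 0.68, from -0.71 to 0.45, from -0.86 to 0.36 and from -0.79 to 0.74 on the log2 scale. These intervals are not adjusted for the number of genes tested. Without males 1 and 5, where male 4 is the only male, the 4 values were -0.42 for SLC1A2, -0.06 for SLC1A3, -0.66 for GFAP and 0.26 for AQP4. Male 4 was the highest library for SLC1A2 and GFAP. The difference of GFAP was -0.05 without male 4, -0.06 without female 4 and -0.48 without male 1.

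ALDH1L1 had the widest difference of the 5, at 1.09 ± 0.45 on the log2 scale (95% interval 0.06 to 2.12), from 35.7 ± 13.0 TPM in females and 17.8 ± 10.2 TPM in males (SD, n = 3 each). Its p was 0.0408 before adjustment and 0.929 after adjustment over the autosomal genes tested by limma. The sexes met at female 3 and male 4, whose values of 27.32 and 27.36 TPM were nearly equal. The difference was 0.57 without male 5, 0.81 without female 4 and 0.90 ± 0.43 from scaled coverage, and in each of these cases the unadjusted p was no longer under 0.05. It was 0.32 without males 1 and 5, where male 4 is the only male.

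Pairs of genes were also compared as ratios within each library. The log2 ratio of SLC1A2 to SLC1A3, from TPM + 1, was 0.73 ± 0.16 in females and 0.60 ± 0.43 in males (SD, n = 3 each), a difference of 0.13 (exact two-sided permutation p = 0.7, adjusted p = 0.7 over 2 ratios). This difference was -0.029 without male 1, 0.37 without male 4 and -0.35 without males 1 and 5. GFAP over ALDH1L1 was at 3.11, 3.12 and 1.72 in females 1, 3 and 4, and at 3.27, 3.63 and 5.08 in males 1, 4 and 5, on the same log2 scale. The 3 males were all above the 3 females, of which female 3 came nearest. The difference of the means was -1.34 (exact two-sided permutation p = 0.1, adjusted p = 0.2), and 0.1 is the smallest p that 3 against 3 can give. Without males 1 and 5 it was -0.98, and leaving out each animal in turn gave -1.70 to -0.80, the smallest being -0.80 without male 5 and -0.88 without female 4. It was -1.16 from scaled coverage and -1.52 with quantile normalization. In FPKM it was -1.19, but FPKM is proportional to TPM, so that change comes only from the 1 added to each value. The other 3 planned ratios, among them GJA1 to GJB6 and ALDOC to ALDOA, were not computed, since 1 or both genes of each had no row.

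Added together, the 5 genes came to 1906, 2079 and 1404 TPM in females 1, 3 and 4, and to 1432, 2184 and 2035 TPM in males 1, 4 and 5. SLC1A2 and SLC1A3 made up most of every sum, so the total follows them more than it follows ALDH1L1, which supplied 0.350% to 3.62% of it. The mean was 1796 ± 351 TPM in females and 1884 ± 398 TPM in males (SD, n = 3 each), a difference of -87.4 TPM that lay well within the spread of either sex. Without female 4 the difference was 109 TPM, and without male 4 it was 62.7 TPM, so its sign rested on single animals. Without males 1 and 5 it was -388 TPM.

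Genes that work beside the 5 markers were read from fixed lists in the same limma fit, over which the median difference of all 30238 genes was -0.03. In the 14 lists, 145 of 186 genes had a row, 136 were tested and none was called, the lowest adjusted p being 0.749. Of the glutamate and glutamine cycle, 11 of 14 genes had a row and 10 were tested. None of these had an unadjusted p under 0.05, and the median difference was 0.07, which over the alternatives ran from -0.10 without female 3 to 0.16 without males 1 and 5. With median-ratio scaling, quantile normalization or stranded loci only, 1 was under 0.05 and higher in males. Without male 1, 1 was under 0.05 and higher in females. The most abundant were SLC17A7, the vesicular glutamate transporter of cortical excitatory neurons, at 783 to 1569 TPM, and GOT2, the mitochondrial aspartate aminotransferase, at 406 to 536 TPM.

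Water, potassium and endfoot genes were tested for 12 of 14 members, with a median difference of 0.08 (from -0.09 without female 3 to 0.19 without males 1 and 5). FXYD1, a small regulator of the sodium pump, ranged from 272 to 585 TPM. HEPACAM, an adhesion protein of astrocytes, was the only member with an unadjusted p under 0.05, 1 of 12, against 2.45% of all genes that were higher in females by this rule. Females were at 122 to 179 TPM and males at 92.1 to 118 TPM, without overlap (9.86% of all genes had none), a difference of 0.56 ± 0.20 (limma adjusted p = 0.929). Without males 1 and 5 this difference was 0.35. The number of members under 0.05 was 0 to 2 over the alternatives. It was 0 without female 1, without female 3 or without male 5, and 2 with, for example, a pseudocount of 0.1, FPKM or scaled coverage. AQP1, a water channel named after its values were seen, was at 4.27 to 5.05 TPM over the females and 1.73 to 2.04 TPM over the males, with a difference of 0.95 ± 0.43 (limma adjusted p = 0.929).

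Connexins form the gap junctions through which astrocytes and oligodendrocytes are coupled. Besides the astrocyte connexins GJA1 and GJB6, which had no row, 6 of 9 further connexins were tested, with a median difference of -0.10 (from -0.22 without female 1 to 0.14 with the animal number as a block). That block takes female 3 and male 5 out of the estimate. GJB1, a connexin of oligodendrocytes, was 1 of 6 with an unadjusted p under 0.05 and higher in females (2.45% of all genes), with females at 9.90 to 17.8 TPM, males at 0.623 to 10.02 TPM and a difference of 1.84 ± 0.64 (limma adjusted p = 0.749). This difference was 1.15 without male 5 and 0.99 with the animal number as a block. Its unadjusted p was over 0.05 with that block, without female 1 or without female 3. For GJB2, females were at 5.38 to 6.68 TPM and males at 7.97 to 10.1 TPM, a difference of -0.55 ± 0.30 (limma adjusted p = 0.929).

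Further genes of astrocytes had a row in 21 of 28 cases, 20 were tested and none had an unadjusted p under 0.05 (median difference 0.03, from -0.19 without males 1 and 5 to 0.17 without female 4). Without male 5, 2 of them did. FABP7 was listed at 0 in every library. CST3, a secreted protease inhibitor, and CLU, a secreted chaperone, were the most abundant, at 6509 to 8833 TPM and at 2749 to 3982 TPM, levels well above those of all 5 markers. The females were at 2749 to 3443 TPM of CLU and the males at 3771 to 3982 TPM, without overlap, with a difference of -0.37 ± 0.36 (limma adjusted p = 0.937). In this list 4 of 20 genes had no overlap, against 9.86% of all genes. The other 3 were named after their values were seen: FGFR3, higher in females by 0.57, and PLCD4 and RANBP3L, higher in males with differences of -0.26 and -0.43 (limma adjusted p = 0.929 for each).

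Genes that rise in reactive astrocytes were tested for 16 of 20 members, with a median difference of -0.09 (from -0.22 without males 1 and 5 to -0.04 in FPKM). LCN2, a secreted lipocalin, was at 14.6, 6.52 and 8.13 TPM in females 1, 3 and 4, and at 28.2, 31.8 and 20.8 TPM in males 1, 4 and 5. All males were above all females, as 9.86% of all genes had no overlap in either direction, and the difference was -1.43 ± 0.32 (limma adjusted p = 0.929). HSPB1, a small heat shock protein, ranged from 67.5 to 110.2 TPM over the females and from 115 to 249 TPM over the males. Its difference was -0.87 ± 0.32 (limma adjusted p = 0.929), but -0.51 without male 5 and -0.37 with the animal number as a block. VIM, an intermediate filament protein like GFAP, ranged from 67.1 to 145 TPM, with a difference of -0.46 ± 0.27 (limma adjusted p = 0.929). LCN2 and HSPB1 were the 2 of 16 members with an unadjusted p under 0.05, both higher in males, where 2.58% of all genes were. The count was 1 without female 3, without male 5 or without the mean-variance trend, and 3 without female 1.

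Enzymes of sugar and folate metabolism, the pathways of ALDOC and ALDH1L1, had no member with an unadjusted p under 0.05. Of 10 aldolase and glycogen genes, 7 had a row and 5 were tested, with a median difference of -0.07 (from -0.16 without female 1 to 0.24 without female 4). PYGB, the brain glycogen phosphorylase, was at 149 to 192 TPM and UGP2, which makes the sugar donor for glycogen, at 77.3 to 119 TPM. All 10 folate enzymes with a row, of 11, were tested, with a median difference of 0.07 (from -0.0058 without female 3 to 0.18 without female 4), and 1 had an unadjusted p under 0.05 without male 1 or without male 4. FTCD was at 32.5 to 58.6 TPM and MTHFD1 at 22.6 to 32.9 TPM. ALDH1L2, the mitochondrial paralog of ALDH1L1, was at 3.17 to 8.46 TPM, with a difference of -0.62 ± 0.39 (limma adjusted p = 0.929), and was named after its values were seen.

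**Figure D4:**
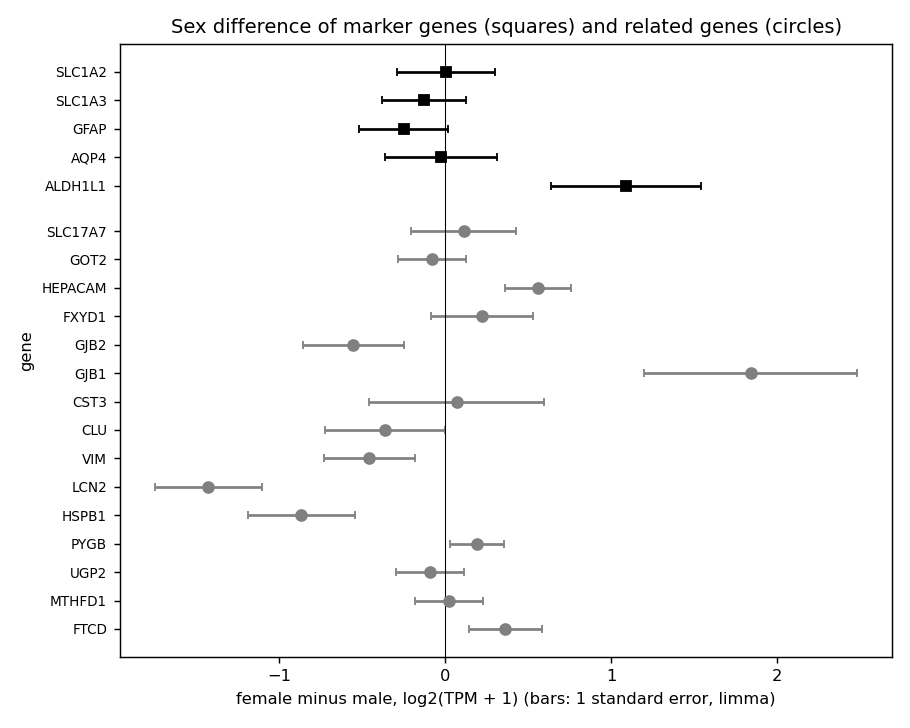
Female minus male difference in log2(TPM + 1), with bars of 1 standard error from limma (n = 3 of each sex), for the 5 astrocyte marker genes (black squares) and the named genes of the related lists (grey circles). ALDH1L1 lies at 1.09, the other 4 markers between -0.25 and 0.00, and LCN2 at -1.43.

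Markers of oligodendrocytes were summed and tested in the same way, and none was called. In the list of 12, 8 were tested and 5 had an unadjusted p under 0.05 and were higher in females, the direction of ALDH1L1, where 2.45% of all genes were. In the same list, CNP, MOBP and UGT8 were among those with no row. The summed level of the list was between 648 and 904 TPM for the females and between 197 and 574 TPM for the males, no member with a row was listed at 0, and MBP, the major myelin protein, was at 7.07 to 13.7 TPM over the 6 libraries. The count was 1 without female 1, without female 3, without male 4 or without male 5, 7 without male 1, 1 without the mean-variance trend and 2 from scaled coverage. Precursors of oligodendrocytes gave 3 of 8 members higher in females by the same rule (2.45% of all genes), with sums of 372 to 396 TPM against 201 to 263 TPM, and 1 of 8 with the animal number as a block. The part of either cell type in the values of ALDH1L1, HEPACAM or GJB1 was not tested.

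Neuron markers summed to between 7012 and 9288 TPM for the females and between 7256 and 8271 TPM for the males, so the males lay inside the range of the females. The sums of the 5 astrocyte genes overlapped in part, with male 4 above every female and female 4 below every male. None of the 8 tested neuron genes had an unadjusted p under 0.05 (median difference 0.02). Without female 4 the median was 0.28 and 1 gene was under 0.05, and without male 4 the median was -0.12. NEFL was listed at 0, and RBFOX3, THY1 and ENO2 had no row.

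**Figure D5:**
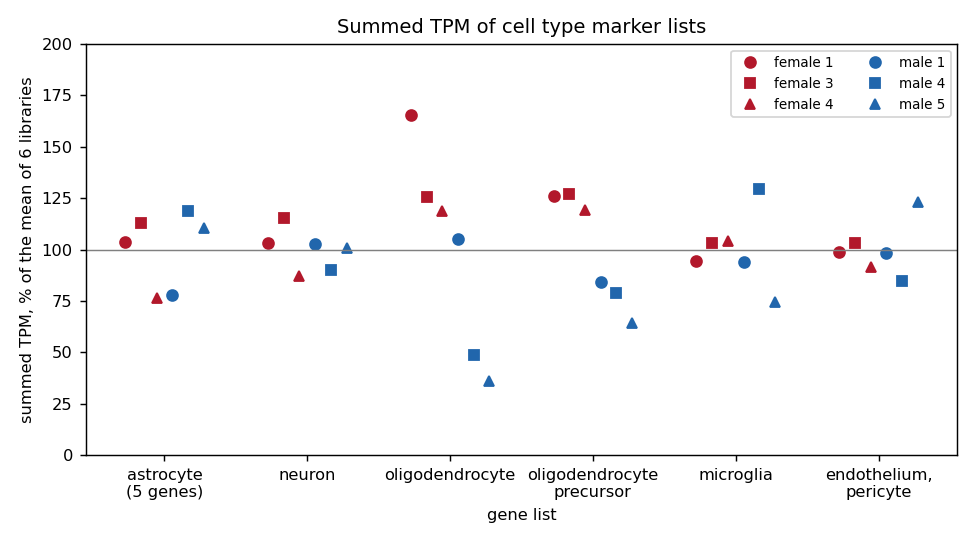
Summed TPM of the 5 astrocyte marker genes and of 5 lists of markers of other cell types, as a percentage of the mean over the 6 libraries, 1 point per library (red for females, blue for males). The astrocyte sum runs from 76.3% in female 4 to 119% in male 4, while the oligodendrocyte sum runs from 36.1% in male 5 to 166% in female 1.

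Genes with a profile most like the mean centred profile of the 5 astrocyte genes were looked for among 11274 named genes with a mean of at least 1 TPM. By the root mean square difference in log2(TPM + 1) over the 6 libraries, the nearest were WBP2NL (0.04, 251 to 359 TPM), PSMD2 (0.04, 83.9 to 118 TPM), SAP30L (0.04, 13.4 to 19.8 TPM), SPACA1 (0.04, 1.40 to 2.47 TPM) and the predicted gene TSORFli1334 (0.05, 0.837 to 1.64 TPM). None of the 5 is on a list of astrocyte genes used here. The mean profile was itself flat, with a root mean square of 0.20, and ALDH1L1 opposed the other 4 genes in female 4 and male 5. It ran from -0.27 in male 1 to 0.27 in female 3. Without ALDH1L1 the mean profile ran from -0.49 in female 4 to 0.28 in female 3.

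The profile of each gene alone was compared in the same way, a search added after the data were seen. KCNH2 was nearest to SLC1A2 (0.02), APBA1 to SLC1A3 (0.03), PIM1 to GFAP (0.05) and PRKCA to AQP4 (0.07). This distance grows with the size of a profile, whose root mean square was 0.81 for ALDH1L1. The closest to ALDH1L1 was PYCARD (0.17), which shared its highest value in female 4 (28.5 TPM) and its lowest in male 5 (5.61 TPM). SDF2L1, BANP, C19ORF67 and ATP8B3 followed, at 0.22 to 0.23, and each was also highest in female 4 and lowest in male 5. These genes were picked for closeness to a profile dominated by those libraries, so the shared extremes follow from the choice. The search used TPM, in which ALDH1L1 of female 4 stood at 1.52 times the shared ratio to coverage.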

How the data were processed

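Total RNA from the PFC of 3 females and 3 males was enriched for polyadenylated RNA and sequenced in pairs. The authors aligned reads to TS_3.0, a genome of this species, and assembled, merged and quantified transcripts, and the submitters' processing notes name HISAT2 2.2.1 and StringTie 2.2.1. The deposited TPM values, which are scaled to locus length and library, sum to 950532 to 971492 in the 95863 loci of each library. The deposited FPKM values are proportional to TPM in each library. Coverage as deposited, a signal of mean depth per base, is not scaled for library size. The authors tested counts with DESeq2, but the tables used here hold none, so limma was run on log2 values instead.

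The software was Python 3.11.15 with pandas 2.3.3, scipy 1.17.1, numpy 2.4.6 and matplotlib 3.10.9. Rows of the same gene ID and chromosome were summed. The 30238 genes that reached 0.1 TPM in 3 or more libraries were tested with limma 3.58.1 in R 4.3.3 on log2(TPM + 1), without covariates and with a mean-variance trend. Benjamini-Hochberg adjustment was made within autosomes, within the X chromosome and within unplaced contigs, with a threshold of 0.1. Adjusted p-values were identical for many genes because the adjustment takes the lowest value at or above each rank. The X segment from 4542400 to 6144400 and chromosome 26 before 3132930 were left out of the fit. Single values were compared by exact permutation of animals. Data simulated from these libraries were used to test the limma script.

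Members and lists were chosen with earlier results of these data known. The lists covered the glutamate-glutamine cycle, endfoot genes, connexins, other and reactive astrocyte genes, aldolase and glycogen enzymes, folate enzymes, neurons, oligodendrocytes and their precursors, microglia, endothelium and pericytes, choroid plexus and ependyma, and radial, Bergmann and Muller glia. Named are all members, the 2 most abundant genes of each list, up to 3 genes of each list with the smallest unadjusted p under 0.05, and the 5 genes nearest in profile. Some genes that this rule names are not reported here. Alternatives were other pseudocounts, filters and scalings, FPKM, the largest locus of a gene, stranded loci only, no trend, joint adjustment, the animal number as a block and each animal left out. Leaving out males 1 and 5 together and using coverage were added after the data were seen. Animal numbers 1 and 4 occur in both sexes but name different animals. Numbers 3 and 5 occur in a single sex each, so with the number as a block female 3 and male 5 do not enter the sex difference. The correlation of deviations from the sex means between same-numbered animals was -0.00 for number 1 and 0.04 for number 4 over 23445 genes, so the numbers did not pair the samples. Methylation data were not analysed here.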

Additional observations from a re-analysis of the deposited data

Results flagged for a closer look

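For 43 values (the 5 genes, their sum, 2 ratios and the named genes of the lists), the gap between the most extreme library and its nearest neighbour was compared with the whole range over the 6 libraries. Chance flags about 1 in 20 such sets, and 4 of 43 exceeded Dixon's 95% critical value for 6 samples. None of them was an astrocyte marker gene, their sum or a ratio.

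HSPB1 was at 249 TPM in male 5 and at no more than 121 TPM elsewhere, so its gap was 0.704 of the range. LHX2, a transcription factor of radial glia, was at 116 TPM in male 4 and at 89.6 to 97.8 TPM elsewhere (0.690). TTR, the transthyretin of choroid plexus, was at 6.39 TPM in female 3 and at no more than 2.24 TPM elsewhere (0.685). PTPRZ1, a receptor phosphatase of glia, was at 116 TPM in female 4 and at no more than 68.0 TPM elsewhere (0.669).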

How the results depend on the processing

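The number of the 5 genes with an adjusted p under 0.1 was 0 under every alternative with more than 1 animal of each sex. The number with an unadjusted p under 0.05 was 1 (ALDH1L1) as reported. It was 0 with median-ratio scaling, quantile normalization, no mean-variance trend and scaled coverage, and 0 to 1 with each animal left out. The female minus male difference of ALDH1L1 stayed positive throughout, between 0.32 and 1.47. That of SLC1A2, 0.00 as reported, was -0.011 with median-ratio scaling, -0.13 with quantile normalization, -0.054 for stranded loci only, -0.026 from scaled coverage, -0.42 without males 1 and 5, and -0.25 to 0.21 with each animal left out (-0.06, -0.08 and -0.25 without female 1, female 3 and male 1). AQP4, -0.03 as reported, was at 0.011 in FPKM, 0.26 without males 1 and 5, and -0.36 to 0.32 with each animal left out (0.32 without female 4, 0.17 without male 5). SLC1A3 was at -0.29 to 0.081 with each animal left out (0.081 without female 4). The summed TPM differed by -313 to 109 TPM with each animal left out (109 without female 4, 62.7 without male 4). The log2 ratio of SLC1A2 to SLC1A3 differed by -0.029 to 0.37 with each animal left out (-0.029 without male 1) and by -0.35 without males 1 and 5. The cause of these changes was not tested.

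With the animal number as a replicate block, which the pairing check did not bear out, SLC1A2 was at -0.032 and ALDH1L1 at 0.73, still under 0.05 unadjusted. With it 3 genes were called over all genes in place of 5. That estimate rests on the animals numbered 1 and 4, since the block absorbs female 3 and male 5, the lowest library of ALDH1L1. Over all genes, 8 were called with a filter at 1 TPM and 2 to 7 with each animal left out. Read counts were not used, and 3 animals of each sex limit every comparison.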

Other observations

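Among markers of other cell types, MAG, a myelin adhesion protein, ranged from 247 to 346 TPM over the females and from 63.4 to 146 TPM over the males, a difference of 1.68 ± 0.30 (limma adjusted p = 0.905) that was 0.76 from scaled coverage. MOG, a myelin surface protein, had a difference of 1.64 ± 0.61 (limma adjusted p = 0.929) that was 0.96 without male 5. CLDN11, the tight junction protein of myelin, at 51.9 to 192 TPM over the 6 libraries, had a difference of 0.90 ± 0.36 (limma adjusted p = 0.929). Of the precursor list, the lineage factors SOX10, OLIG1 and OLIG2 were each higher in all 3 females than in all 3 males (9.86% of all genes had no overlap in either direction), with differences of 1.17 ± 0.24, 0.71 ± 0.21 and 0.76 ± 0.27 (limma adjusted p = 0.929 for each). That of OLIG2 was 0.45 without male 5 and 0.38 without males 1 and 5. PTPRZ1 ranged from 44.3 to 116 TPM. The median difference was 1.17 for the oligodendrocyte list and 0.55 for the precursor list. The first was 0.77 with the animal number as a block, and the second was 0.35 with that block, 0.36 without male 4 and 0.29 from scaled coverage.

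None of the 8 tested microglia genes had an unadjusted p under 0.05 (median difference -0.15). The median was 0.05 with 1 gene under 0.05 without male 4, 0.01 without female 4 and -0.41 without males 1 and 5. The most abundant were C1QB at 54.9 to 129.9 TPM and CSF1R at 35.9 to 65.9 TPM. Of 8 endothelium and pericyte genes, CLDN5, the tight junction protein of brain vessels, was the 1 with an unadjusted p under 0.05 and higher in females (2.45% of all genes), with females at 33.5 to 60.7 TPM and males at 23.2 to 28.9 TPM (difference 0.83 ± 0.24, limma adjusted p = 0.929), and the median difference was 0.19 (0.07 without male 1). PECAM1 ranged from 252 to 409.6 TPM and SLC2A1 from 81.7 to 139 TPM. Of 7 tested choroid plexus and ependyma genes, FOLR1 was the 1 with an unadjusted p under 0.05 and higher in males (2.58% of all genes), with females at 0.0726 to 1.21 TPM and males at 1.16 to 8.86 TPM (difference -1.72 ± 0.69, limma adjusted p = 0.929), and the median difference of the list was 0.27, or 0.17 without a filter, 0.57 with a filter at 1 TPM, and 1.06 and 1.18 with pseudocounts of 0.1 and 0.01. FOLR1 was highest in males 1 and 5, at 6.48 and 8.86 TPM, and its difference was -0.40 without them, -0.65 from scaled coverage, -0.92 in FPKM and -2.81 with a pseudocount of 0.1. Of 10 genes of radial, Bergmann and Muller glia, ID4 was the 1 with an unadjusted p under 0.05 and higher in females (2.45% of all genes), with females at 74.2 to 98.3 TPM and males at 51.7 to 72.4 TPM (difference 0.47 ± 0.20, limma adjusted p = 0.929), HOPX ranged from 686 to 1012 TPM, and the median difference was 0.35. Without males 1 and 5 the ID4 difference was 0.18 and the median of the list was -0.06, and with the animal number as a block that median was 0.17. The number of genes of this list under 0.05 was 0 without female 1, without female 3, without male 1 or without male 5, and 2 without male 4. The neuron genes SNAP25 and CAMK2A ranged from 3088 to 4861 TPM and from 1094 to 2217 TPM.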
